A study of Mus musculus with 8 samples.

Results

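The tubulin isotypes described here are the 10 alpha and beta tubulin genes Tuba1a, Tuba1b, Tuba1c, Tuba4a, Tubb2a, Tubb2b, Tubb3, Tubb4b, Tubb5 and Tubb6, which were taken by gene symbol from a table of 25574 mouse genes. The 10 genes comprise 4 alpha and 6 beta isotypes, and they were chosen with earlier results of these data known. Both datasets came from denuded CD1 oocytes of 8 weeks old females that had received 5 IU of pregnant mare serum gonadotropin 46 h before isolation at the germinal vesicle stage in 100 µM IBMX, an inhibitor that holds meiosis. The oocytes were then kept for 180 min without IBMX, reached nuclear envelope breakdown (NEBD), and received 0.1 mg/ml cycloheximide for 10 min, which holds ribosomes on mRNA. Each sucrose gradient carried 200 pooled oocytes and was cut into 10 fractions. Fractions 2 to 5 gave the non-polysomal (NP) RNA, and fractions 6 to 10 gave the polysomal (P) RNA. The study describes independent biological replicates of the gradient, each pooled into an NP and a P part, which gave 4 NP and 4 P libraries. NP and P libraries thus share gradients, but the labels do not say which ones belong together. The main tests did not pair them. The comparison of P with NP asks which mRNAs sedimented with polysomes and which in lighter fractions. By the study's account, NP holds the peaks of the ribosomal subunits and of single ribosomes as well as stored particles. The study could not exclude that heavy stored particles sedimented with the polysomes.

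Microtubules are hollow polymers of alpha and beta tubulin heterodimers, and the meiotic spindle that forms after NEBD is built from them. The isotypes are products of separate genes that differ mostly in their carboxyl-terminal tails, which project from the microtubule surface and carry most modifications. Cells also adjust tubulin mRNA to free tubulin: TTC5 recognises the start of a nascent tubulin chain on the ribosome and recruits factors that degrade the mRNA, so ribosome-bound tubulin mRNA is the substrate of this control.

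The ends of the coding sequences are shown for 7 isotypes because this is where the isotypes can be told apart and where the near-identical pair Tubb2a and Tubb2b is visible. The last 60 coding bases, read 5′ to 3′ on the coding strand from the GRCm38 genome with GENCODE gene models, are in lower case with the stop codon in capitals.
Tuba1c, chr15:99037950-99038009, plus strand: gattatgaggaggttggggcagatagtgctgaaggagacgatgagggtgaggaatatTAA
Tuba4a, chr1:75215622-75215681, minus strand: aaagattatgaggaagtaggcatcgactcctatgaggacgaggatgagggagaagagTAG
Tubb2a, chr13:34074468-34074527, minus strand: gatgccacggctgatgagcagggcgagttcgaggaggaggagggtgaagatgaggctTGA
Tubb2b, chr13:34127471-34127530, minus strand: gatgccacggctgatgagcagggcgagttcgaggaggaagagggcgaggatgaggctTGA
Tubb3, chr8:123421623-123421682, plus strand: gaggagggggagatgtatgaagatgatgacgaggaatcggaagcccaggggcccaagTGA
Tubb4b, chr2:25222308-25222367, minus strand: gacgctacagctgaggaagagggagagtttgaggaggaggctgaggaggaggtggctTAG
Tubb5, chr17:35834982-35835041, minus strand: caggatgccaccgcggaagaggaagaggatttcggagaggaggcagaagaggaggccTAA

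Over these 60 bases Tubb2a and Tubb2b were 95% identical, whereas Tubb2a and Tubb3 shared 47.5%. Over the whole coding sequence, identity among the alpha isotypes was 84.7% to 98.3%, the highest being that of Tuba1a and Tuba1b. Among the beta isotypes it was 80.2% to 96.5%, the highest being that of Tubb2a and Tubb2b. Alpha and beta isotypes were 54.4% to 57.1% identical. All 10 models had 4 exons and a coding sequence of 1335 to 1356 bases, so coding length hardly differed between them. The first 12 coding bases, which encode the stretch that TTC5 recognises, took 6 forms in the 9 isotypes shown and tell the alpha from the beta isotypes.
Tuba1a, Tuba1b and Tuba1c: atgcgtgagtgc
Tuba4a: atgcgcgagtgc
Tubb3 and Tubb4b: atgagggagatc
Tubb5: atgagggaaatc
Tubb2a: atgcgcgagatc
Tubb2b: atgcgagagatc

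Likeness of this degree limits how reads can be assigned. Of all 150-base stretches of the spliced transcript, the length of 1 read, 57.4% in Tuba1b, 46.7% in Tuba1c and 37.5% in Tuba1a also occurred exactly in another tubulin transcript or elsewhere in the genome. The shares were 27.9% in Tubb2a and 20.1% in Tubb2b, which shared 408 stretches with each other. In Tubb4b it was 16.8%, all 244 stretches lying elsewhere in the genome and none in another tubulin transcript. Tuba4a, Tubb3, Tubb5 and Tubb6 had none. The sources used here do not say how reads that fit several places were counted, so the split among Tuba1a, Tuba1b and Tuba1c, and between Tubb2a and Tubb2b, is uncertain, while Tuba4a, Tubb3, Tubb5 and Tubb6 do not carry this uncertainty at read length.

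**Figure D1:**
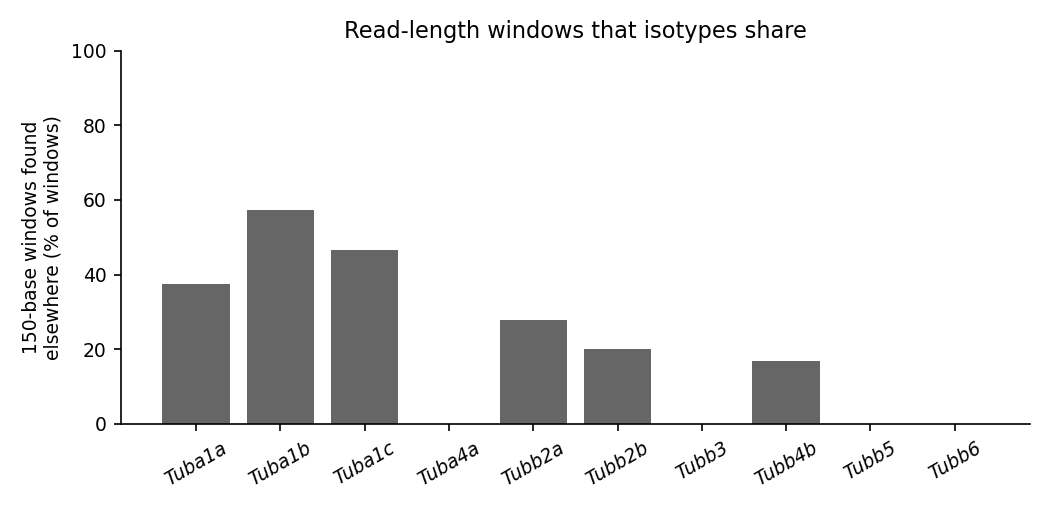
Share of 150-base stretches of each isotype's spliced transcript (percent, y axis) that occur exactly in another tubulin transcript or elsewhere in the GRCm38 genome. The 3 Tuba1 genes stand highest at 37.5% to 57.4%, and Tuba4a, Tubb3, Tubb5 and Tubb6 are at 0.

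Values are FPKM, fragments scaled to gene length and to the reads of the library, and are thus relative to the rest of the library. They therefore compare the make-up of the P and NP RNA, and do not give the fraction of a gene's mRNA that sat on polysomes. The number to which each library had been scaled, recovered from the steps between FPKM values, was 1299377 to 7594637 in NP and 2677946 to 4699328 in P. The reads behind an isotype ran from 47 (Tuba1a in NP replicate 2) to 99351 (Tubb4b in NP replicate 1), and these cover counting error only, since amplified cDNA without molecular identifiers does not count molecules. More genes were above 0 in each NP library (11703 to 13753) than in any P library (9139 to 11339). The 8 oocyte markers examined were present in every library, with summed FPKM of 5292 to 10911.5 in NP and 7427 to 30332 in P. Of 10 markers of granulosa and cumulus cells, which enclose the oocyte before denudation, 4 were at 0 throughout, and the sum was 6.07 to 78.0 in NP and 1.33 to 62.6 in P. Cyp19a1 gave most of it in NP and in P replicates 1 and 2, and Kitl, at 10.3 FPKM, gave most of it in P replicate 3. In such bulk samples fewer cells of a type and less RNA per cell cannot be told apart, and the part of these cells in the tubulin values was not tested. The 4 blood markers found in the table were at 0 throughout.

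No isotype passed the threshold of an adjusted p below 0.1 in limma, which 0.021% of the 14292 genes tested passed. The voom test in limma on recovered reads also called 0 of the 10, and 1.71% of its genes. At an unadjusted p below 0.05 limma named 1 isotype, Tubb6, and voom 2, Tubb4b and Tubb6, all lower in P, beside 9.95% and 13.2% of all genes tested by each. Genes at that level and lower in P made up 9.47% in limma, and those higher in P 0.476%. The P and NP libraries overlapped for each of the 10 isotypes, whereas they did not overlap for 6.28% of genes. The values leaned in different directions. The log2 fold change of P over NP lay above 0 for Tuba1a, Tuba1b, Tuba1c and Tubb2a and below 0 for the other 6, while it lay above 0 for 28.6% of all genes. The median was 0.99 over the 4 alpha isotypes and −0.86 over the 6 beta isotypes, beside −0.39 over all genes tested. All 10 isotypes passed the filter on low values.

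**Figure D2:**
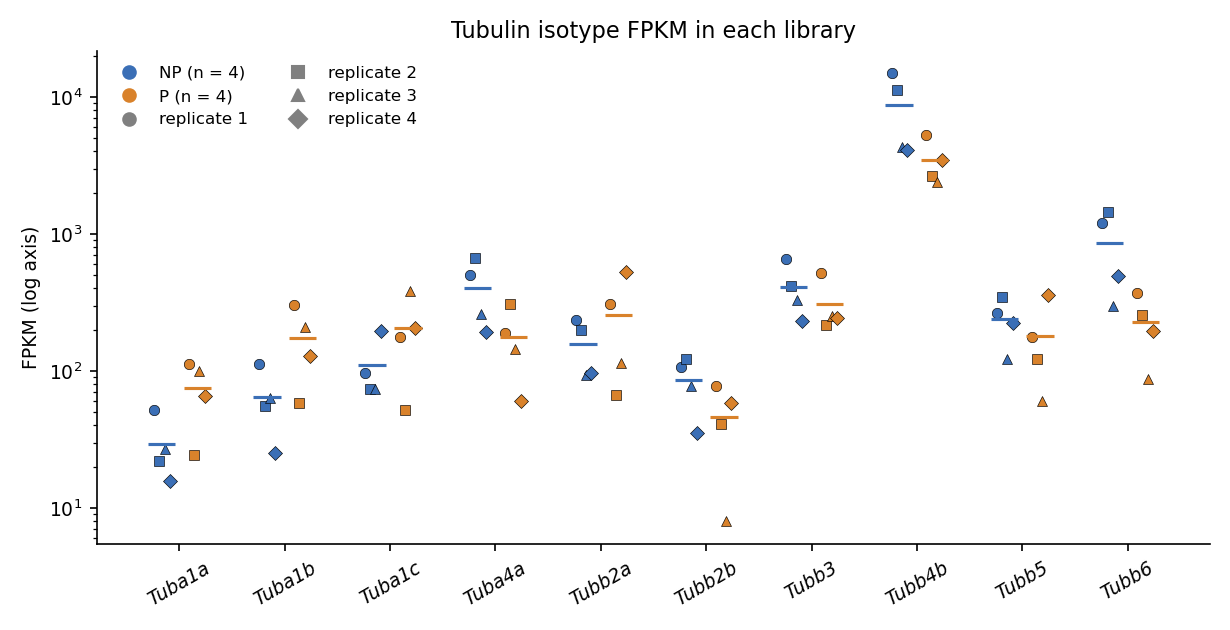
FPKM of each isotype (log axis) in the 4 NP (blue) and 4 P (orange) libraries, with the symbol giving the replicate number and the bar the mean. Tubb4b stands above the other isotypes in all 8 libraries, and P replicate 2 (square) lies apart from the other P libraries for Tuba1a and Tuba1b.

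Among the alpha isotypes, Tuba1a and Tuba1b had the highest values in P relative to NP, and Tuba4a had lower ones. Tuba1b (chr15:98931425-98934565, minus strand), a widely expressed alpha tubulin, measured 112, 55.4, 63.7 and 25.2 FPKM in NP replicates 1 to 4. In P it measured 305, 58.1, 210 and 128. Of the 4 P libraries, 3 lay above every NP library, and P replicate 2 lay inside the NP range. The means were 64.1 ± 36.1 and 175 ± 106 FPKM (SD, n = 4 each). The log2 fold change was 1.38 ± 0.67 (SE), with an adjusted p of 0.515 in limma and a 2-sided exact permutation p of 0.0857 over 70 assignments, of which the smallest possible is 0.0286. Its 95% interval ran from −0.06 to 2.81, and 98.4% of the genes tested had a lower log2 fold change.

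Tuba1a (chr15:98949841-98953551, minus strand), an alpha tubulin best known from the developing brain, was the lowest isotype in NP, at 52.1, 22, 26.9 and 15.7 FPKM. Its P values were 112, 24.4, 99.6 and 65.1. Here too P replicate 2 lay among the NP libraries, and the other 3 P libraries lay above them. The log2 fold change was 1.27 ± 0.67 (SE; adjusted p = 0.533, limma). The ratio of Tuba1a to Tuba1b varied little, being 0.476 ± 0.101 in NP and 0.443 ± 0.0614 in P (SD, n = 4 each). Both genes are neighbours on the chromosome and share read-length sequence, and the part of shared reads in this likeness was not tested.

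Tuba1c (chr15:99029891-99038105, plus strand) lies in the same cluster. It measured 95.9, 74.4, 74.4 and 195 FPKM in NP and 178, 51.7, 382 and 207 in P. The highest NP library lay above P replicates 1 and 2, and P replicate 2 was the lowest of all 8. P over NP gave a log2 fold change of 0.70 ± 0.66 (SE; adjusted p = 0.688, limma). Without P replicate 3 it was 0.30, the lowest value with a library left out, and the ratio of the means went from 1.86 to 1.32. Summed over Tuba1a, Tuba1b and Tuba1c, which avoids the split of reads among them, the level was 203 ± 52.9 FPKM in NP and 455 ± 246 in P (SD, n = 4 each). The sum does not settle reads that also fit other places in the genome, nor a loss of reads that fit several places.

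Tuba4a (chr1:75214974-75219253, minus strand), whose product is known to lack the genome-encoded terminal tyrosine of other alpha tubulins, leaned the other way. It measured 497, 671, 261 and 192 FPKM in NP. In P it measured 189, 309, 144 and 60.8. P replicate 2 was again the library that reached into the NP range. On the log2 scale P over NP was −1.25 ± 0.64 (SE; adjusted p = 0.528, limma), and the exact permutation p was 0.143.

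The overlap of Tuba1a, Tuba1b and Tuba4a between the datasets rested on P replicate 2. With it left out, all P libraries exceeded all NP libraries for Tuba1a and Tuba1b, and all NP libraries exceeded all P libraries for Tuba4a. In that setting 1.02% of genes had P wholly above NP and 8.53% had NP wholly above P. The log2 fold changes without it were 1.73 for Tuba1a, 1.82 for Tuba1b, 1.25 for Tuba1c and −1.60 for Tuba4a, and limma still called none of them.

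Tubb4b dominated the beta isotypes and the tubulins as a whole. This beta tubulin (chr2:25222160-25224702, minus strand), which is broadly expressed and abundant in ciliated cells, measured 14905.5, 11266, 4336 and 4122 FPKM in NP. In P it measured 5315, 2647, 2406 and 3478. It ranked 1, 1, 1 and 6 among all genes of the NP libraries and 8, 9, 8 and 18 in the P libraries. P replicate 1 lay above NP replicates 3 and 4, and every other P library lay below all of NP. The means were 8657 ± 5326 and 3462 ± 1318 FPKM (SD, n = 4 each). Its log2 fold change was −1.17 ± 0.60 (SE; adjusted p = 0.532, limma), with an exact permutation p of 0.114.

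Tubb6 had the lowest log2 fold change of the 10. This beta tubulin is best known from muscle and from its effect on microtubule stability. It measured 1197, 1435, 298 and 492 FPKM in NP and 372, 254, 87.6 and 196 in P. A single library on each side, NP replicate 3 and P replicate 1, made the datasets overlap. This gave a log2 fold change of −1.81 ± 0.65 (SE), with an unadjusted p of 0.0151, an adjusted p of 0.416 (limma) and an exact permutation p of 0.0571. Of all genes tested, 7.70% had a lower value. Without P replicate 1 all NP libraries exceeded all P libraries for Tubb4b and Tubb6, as for 11.4% of all genes in that setting, and P wholly exceeded NP for no isotype and for 0.742% of genes. Without NP replicate 3 this held for Tubb6 alone of the 10, and for 8.22% of all genes.

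The other beta isotypes differed less between the datasets. Tubb3 (chr8:123411424-123422015, plus strand), the beta tubulin used as a marker of neurons, measured 661, 415, 327 and 232 FPKM in NP and 521, 215, 251 and 243 in P. P replicate 1 stood far above the other P libraries, which lay close together. The log2 fold change was −0.40 ± 0.55 (SE; adjusted p = 0.764, limma), about that of the median gene. Tubb5 (chr17:35833926-35838306, minus strand), a widely expressed beta tubulin, measured 265, 348, 123 and 225 FPKM in NP and 176, 121, 60.5 and 357 in P. P replicate 4 was the highest of the 8 and P replicate 3 the lowest. Its log2 fold change was −0.61 ± 0.63 (SE; adjusted p = 0.702, limma).

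Tubb2a and Tubb2b, a pair of adjacent beta tubulin genes prominent in the brain, lay on opposite sides of 0. Tubb2a (chr13:34074301-34078008, minus strand) measured 234, 200, 93.9 and 96.6 FPKM in NP and 310, 66.2, 115 and 530 in P. The P libraries spanned the whole NP range, and the log2 fold change of 0.39 ± 0.69 (SE; adjusted p = 0.813, limma) changed sign to −0.11 without P replicate 4. The ratio of its means went from 1.63 to 1.05 with that library left out. Tubb2b (chr13:34127008-34130354, minus strand) measured 108, 123, 77.5 and 35.1 FPKM in NP and 76.9, 40.9, 7.96 and 58.5 in P. The lowest value, in P replicate 3, rested on 68 recovered reads, against 252 to 1084 in the other libraries. On the log2 scale its fold change was −1.11 ± 0.75 (SE; adjusted p = 0.618, limma), and it was −0.44 without P replicate 3. Without NP replicate 4 the NP libraries of Tubb2b all exceeded its P libraries, as for 10.4% of all genes.

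**Figure D3:**
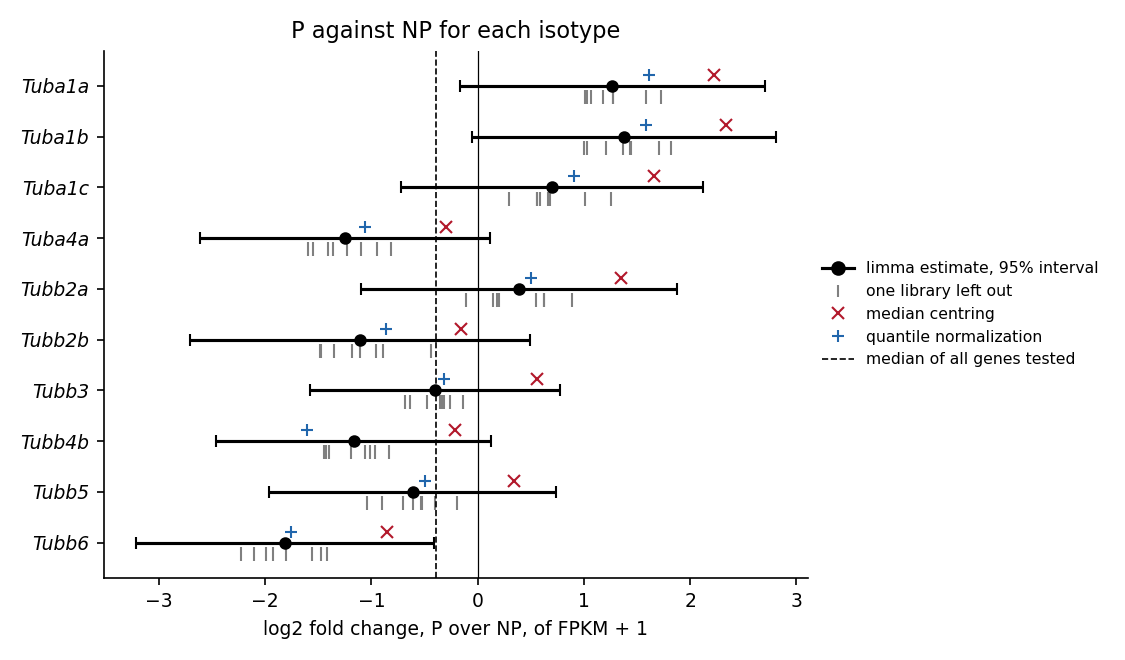
Log2 fold change of P over NP, on FPKM + 1, for each isotype: the limma estimate with its 95% interval (black), the estimates with 1 library left out (grey ticks) and those after median centring (red) and quantile normalization (blue), with the median of all genes at −0.39 dashed. Tuba1a, Tuba1b and Tuba1c lie above 0 and Tuba4a, Tubb2b, Tubb4b and Tubb6 below 0 at every setting drawn, while Tubb2a, Tubb3 and Tubb5 cross 0.

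The directions depend in part on how the libraries are scaled to each other. Centring every library on its median moved the median of all genes to 0.57, and quantile normalization moved it to −0.02. After centring, 6 of the 10 isotypes lay above 0, since Tubb3 and Tubb5 changed sign to 0.56 and 0.35. Tuba1a and Tuba1b then stood at 2.23 and 2.33 (adjusted p = 0.122 and 0.108, limma), while Tuba4a was at −0.29 and Tubb4b at −0.21. Under quantile normalization 4 lay above 0, with Tuba1b at 1.59 and Tubb4b at −1.60. Centring shifts the log2 fold change of every gene by the same amount, so it cannot alter the order of the isotypes. Quantile normalization can, and under it Tuba1a and Tuba1b were again highest and Tubb6 lowest.

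The make-up of the tubulin mRNA within a library does not change when all its FPKM values are multiplied by a common factor. It was computed on FPKM as deposited and not after quantile normalization. Among the alpha isotypes, Tuba4a supplied 65.6%, 81.6%, 61.3% and 44.9% of the summed FPKM in NP replicates 1 to 4. In P it supplied 24.1%, 69.7%, 17.2% and 13.2%. P replicate 2 had the make-up of an NP library, and in the other 3 P libraries the Tuba1 genes held most of the sum. The mean share of Tuba1b was 10.6% ± 4.96 in NP and 26.2% ± 10.6 in P (SD, n = 4 each). Tuba1a held 4.88% ± 2.03 and 11.5% ± 4.12, and Tuba1c 21.2% ± 16.6 and 31.2% ± 16.9. For Tuba1c the difference of 10.1 percentage points went down to 5.23 without P replicate 3 and up to 18.2 without NP replicate 4, and was also moved by more than 1.5 times without NP replicate 2 (6.02), P replicate 2 (16.6) or P replicate 4 (5.52). The alpha sum itself was nearly the same, 608 ± 212 FPKM in NP and 631 ± 207 in P, and its libraries overlapped.

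Among the beta isotypes the make-up changed less. Tubb4b supplied 79.2% to 85.8% of the beta sum in NP and 71.5% to 82.2% in P. Tubb6 held 8.11% ± 2.20 and 5.03% ± 2.0, and Tubb3 4.37% ± 1.36 and 6.92% ± 1.56 (NP and P, SD, n = 4 each). Of the 10 isotypes only Tubb2a had a share without overlap between the datasets, and how often chance gives 1 such share was not tested. The uncertain split of reads between Tubb2a and Tubb2b enters this share. It was 1.35%, 1.45%, 1.79% and 1.86% in NP and 4.58%, 1.98%, 3.92% and 10.9% in P, with P replicate 2 just above the highest NP library. Its difference of 3.73 percentage points was 1.88 without P replicate 4, and in the same setting that of Tubb5 went from 1.23 to 0.0862 and that of Tubb4b from −4.48 to −2.37. Tubb5 held 2.68% ± 1.18 and 3.91% ± 2.38, and Tubb2b 0.914% ± 0.391 and 0.958% ± 0.459. Shares of one sum are bound to each other, so they were described and not tested.

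In summed FPKM of the 10 isotypes, beta exceeded alpha in every library, and by more in NP. How reads that fit several places were counted is not known. It bears more on the Tuba1 genes, with 37.5% to 57.4% of stretches shared, than on Tubb4b with 16.8%. Its part in the ratio was not tested. The beta sum was 10403 ± 6152 FPKM in NP and 4476 ± 1741 in P (SD, n = 4 each). Divided by the alpha sum it gave 22.9, 16.7, 12.3 and 12.2 in NP and 8.64, 7.54, 3.50 and 10.6 in P, and the datasets did not overlap. With the other alpha and beta tubulin genes of the table added, the ratios became 11.3 ± 4.91 and 5.48 ± 2.11 and did overlap. Without Tubb4b they were 2.75 ± 0.50 and 1.76 ± 0.981, overlapping too, so the size of the ratio rested mainly on this gene. In P replicate 3 the ratio without it was 0.624, with beta below alpha. The 10 isotypes together held 0.978% to 3.03% of all FPKM in NP and 0.835% to 1.21% in P.

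**Figure D4:**
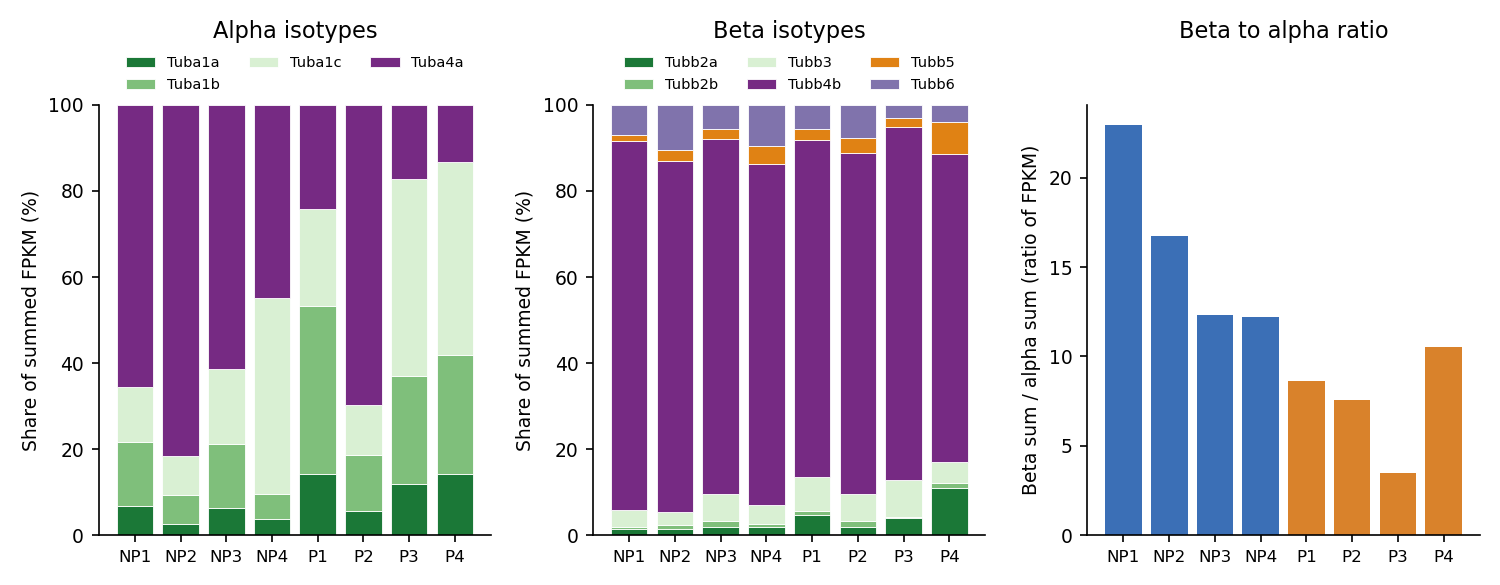
Share of each isotype in the summed alpha (left) and beta (middle) FPKM of every library, in percent, and the ratio of the beta sum to the alpha sum (right). Tuba4a (purple, left) holds 44.9% to 81.6% in NP, 13.2% to 24.1% in P replicates 1, 3 and 4 and 69.7% in P replicate 2, and the ratio is 12.2 to 22.9 in NP and 3.50 to 10.6 in P.

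By mean FPKM, the order in NP was Tubb4b, Tubb6, Tubb3, Tuba4a, Tubb5, Tubb2a, Tuba1c, Tubb2b, Tuba1b and Tuba1a. In P it was Tubb4b, Tubb3, Tubb2a, Tubb6, Tuba1c, Tubb5, Tuba4a, Tuba1b, Tuba1a and Tubb2b. In both datasets only Tubb4b was separated from the next isotype, all its libraries lying above all of that isotype, and every other pair of neighbours overlapped. Within NP libraries, Tubb5 lay above Tubb2a and Tuba1b above Tuba1a in 4 of 4, so their order held inside each library even though their ranges overlapped. Tuba1b lay above Tuba1a in 4 of 4 P libraries as well.

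The genes with the most similar profiles were named for the most abundant isotype and for Tuba1b, by Pearson's r of log2(FPKM + 1) over the 8 libraries among 6414 genes. For Tubb4b these were Sqstm1, an autophagy receptor, with r = 0.983, the proteasome subunit gene Psmd8 with 0.956 and AC133939.1 with 0.951. For Tuba1b they were Tuba1a with 0.981, Pdia5, a protein disulphide isomerase, with 0.939, and Mid1, a microtubule-associated ubiquitin ligase, with 0.930. The isotypes most like Tubb4b were Tubb6 with 0.921 and Tubb3 with 0.852. All these values share the same 8 libraries, their scaling and the difference between the datasets, and the highest of 6414 values over 8 points will be large, so they are descriptions only.

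Of the 10 other tubulin genes of the table, 7 were tested, 0 were called and 0 had an unadjusted p below 0.05 in limma. All 7 had a log2 fold change below 0, with a median of −0.58, while 28.6% of all genes lay above 0. Tuba3a and Tuba3b are alpha tubulins best known from testis. Tuba3a measured 127, 244, 128 and 225 FPKM in NP and 165, 109, 310 and 141 in P, the datasets having nearly equal means of 181 FPKM. It was thus in the range of the Tuba1 genes. Tuba3b had means of 34.8 and 26.9 and Tubal3 of 49.8 and 32.7 FPKM. Tubg1 and Tubg2 encode gamma tubulin, which nucleates microtubules, and had means of 18.1 and 7.13, and of 66.0 and 50.1 FPKM. Single libraries weighed on both: Tubg1 was 45.5 in NP replicate 2 and 0.697 to 17.1 in the other NP libraries, and Tubg2 was 126 in P replicate 1 and 3.08 to 43.4 in the other P libraries. Tubd1 and Tube1, the delta and epsilon tubulins of centrioles, had means of 11.4 and 9.91, and of 41.8 and 50.9 FPKM. The P mean of Tube1 lay above that of NP only through P replicate 3, its P values being 40.5, 33.2, 119 and 11.5. Tubb4a did not reach a mean of 0.1 FPKM in either dataset, and Tuba8 and the platelet isotype Tubb1 were listed at 0 in all 8 libraries. The coding sequences of Tuba3a and Tuba3b were 97.0% identical, and those of Tubg1 and Tubg2 93.3%. Shared read-length stretches were searched for the 10 isotypes only, so the split of reads within these pairs was not examined.

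New tubulin is folded by the chaperonin CCT, to which prefoldin delivers it, and is assembled into dimers by the tubulin cofactors. All 21 genes of this list were tested and 0 were called by limma. Of their log2 fold changes 12 lay above 0, beside 28.6% of all genes, and the median was 0.33. At an unadjusted p below 0.05 there was 1, lower in P, as were 9.47% of all genes. This was Pfdn1, a prefoldin subunit, at 65.7, 113, 98.5 and 36.2 FPKM in NP and 0.988, 12.5, 14.2 and 0.347 in P. The datasets did not overlap, NP lying above P as for 5.92% of all genes, while P lay wholly above NP for 0.357%. Its log2 fold change was −3.91 ± 0.89 (SE; adjusted p = 0.344, limma). The chaperonin subunit Cct5 had means of 621 and 324 FPKM (adjusted p = 0.576) and the cofactor Tbcb means of 85.5 and 39.2 FPKM in NP and P (adjusted p = 0.595, limma).

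Enzymes that modify tubulin act mainly on the tails encoded by the sequences above. Of 24 listed genes 20 were tested and 0 called by limma. At an unadjusted p below 0.05 there were 2, both lower in P, as were 9.47% of all genes. Of the 20 log2 fold changes 19 lay below 0, with a median of −0.83, while 28.6% of all genes lay above 0. Ttl, the ligase that restores the terminal tyrosine of alpha tubulin, measured 5.01, 22.7, 13.2 and 8.84 FPKM in NP and 2.51, 2.15, 0.0378 and 0.126 in P. The datasets did not overlap, NP lying above P as for 5.92% of all genes, and the log2 fold change was −2.65 ± 0.88 (SE; adjusted p = 0.412, limma). Sirt2, a tubulin deacetylase, had means of 10.7 and 2.38 FPKM and was at 0 in 3 of the P libraries (adjusted p = 0.495). Agbl2, a carboxypeptidase that acts on tubulin, had an NP mean of 16.7 FPKM and P values of 28.7, 0.797, 0.0338 and 0.0562, so a single P library carried the P mean (adjusted p = 0.533).

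Of 14 genes for microtubule binding and assembly, all were tested and 0 called by limma. Of these 8 lay above 0 and 6 below, beside 28.6% of all genes above 0, and the median was 0.10. An unadjusted p below 0.05 was found for 1 gene higher in P, Prc1, and 2 lower in P, Mtap7 and Mapre3, an end-binding protein gene at 1.93 and 0.0274 FPKM that was named after its values had been seen. Of all genes, 0.476% were at that level and higher in P, and 9.47% lower. Prc1, which bundles antiparallel microtubules of the spindle midzone, measured 59.8, 148, 401 and 150 FPKM in NP and 980, 381, 656 and 360 in P. NP replicate 3 was the only NP library inside the P range. Its log2 fold change was 1.84 ± 0.64 (SE; adjusted p = 0.416, limma). Tpx2, a spindle assembly factor, had means of 35.0 and 80.9 FPKM (adjusted p = 0.541). Mtap7, listed under its newer symbol Map7 and a microtubule-binding partner of kinesin-1, had means of 10.4 and 2.37 FPKM (adjusted p = 0.495). Its NP libraries all lay above its P libraries, as for 5.92% of all genes.

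Of 9 genes for severing and depolymerization, 7 were tested, 0 were called and 0 had an unadjusted p below 0.05 in limma. The median log2 fold change was −0.21. The severing enzyme gene Spast had means of 31.0 and 44.0 FPKM and the depolymerizing kinesin gene Kif2c of 108 and 92.6, with adjusted p of 0.788 and 0.823. Of the autoregulation genes, Ttc5 varied most among the P libraries. It measured 12.3, 13.4, 2.16 and 6.51 FPKM in NP and 267, 249, 0.244 and 44.6 in P. The P libraries lay both far above and below the NP range, and the log2 fold change was 2.43 ± 1.38 (SE; adjusted p = 0.552, limma). Scaper, which joins TTC5 to the deadenylase, had means of 3.9 and 4.02 FPKM, with single high libraries on both sides. D1Bwg0212e, the older symbol of the deadenylase subunit gene Cnot11, had means of 27.1 and 13.8 FPKM (adjusted p = 0.522, limma), with 43.8 in P replicate 1 and 1.80 to 7.49 in the other P libraries.

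The 3′ ends were searched for cytoplasmic polyadenylation elements, which in maturing oocytes govern when stored mRNAs are translated. In the last 100 bases of the 3′ untranslated region, on the sense strand only, TTTTAT was found in Tubb2b, 31 bases from the end, and in Tubb3, 94 bases from the end, and TTTTAAT in none of the 10. TTTTAT was found in 15.0% and TTTTAAT in 5.62% of 10957 genes with such a window. The polyadenylation signal AATAAA was found in 6 isotypes, and in 66.3% of all windows, and ATTAAA in Tubb4b and in 21.6% of all. TTTTAAT can overlap AATAAA. These are matches of letters in 1 model per gene and describe no binding. For Tubb2b and Tuba4a the model runs past the 3′ end of the gene coordinates given above, and the searched window lies wholly beyond that end. The match in Tubb2b and the lack of one in Tuba4a thus describe the model, and whether the measured mRNA reached that end was not tested.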

How the data were processed

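RNA of pooled NP and P gradient fractions from mouse oocytes was sequenced in 8 libraries, grouped by title; the labels give no batch or date. Ribosomal RNA was depleted, and the rest was primed with oligo(dT) and random primers and amplified, so values describe amplified cDNA. The authors used Trim Galore 0.4.1 and FastQC 0.11.5 for trimming and checks and HISAT2 2.0.5 for mapping to GRCm38, and deposited FPKM values per gene and library, made in Seqmonk on a linear scale. The gene models, the lengths behind FPKM and the handling of multiply mapped reads are not given in the sources used here. The deposited means of each dataset, ratios of means and DESeq2 results (fold changes, p values) are the authors' own comparisons and were not used.

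For the comparison of P with NP, 2-sided tests of the package limma 3.58.1 (R 4.3.3; trended eBayes after lmFit) were run on log2(FPKM + 1). The 14292 genes tested were those whose mean exceeded 0.1 FPKM in NP or in P. Adjustment was by Benjamini-Hochberg over all of them, and the threshold was 0.1. A fold change on this scale understates that of low genes. Exact permutation tests on FPKM used the 70 assignments of 8 libraries, and neither they nor the main fit paired NP with P. Shares and sums were computed within libraries and not tested. Python 3.11.15 with numpy 2.4.6, pandas 2.3.3, scipy 1.17.1, matplotlib 3.10.9 and Biopython 1.88 was used, and the fit was checked on simulated data. Reads were recovered within a tolerance of 0.01 of a whole number for 6310 of the genes tested (44.2%), with lengths searched where the annotated one gave no whole reads.

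Alternatives were another pseudocount, other filters, 2 scalings, array weights, a replicate block, each library left out and voom on recovered reads, the last chosen after seeing the data. The isotypes, the other gene lists and the tests were chosen with earlier results of these data known. Named beside the isotypes were the other tubulin genes, the autoregulation genes, the 3 genes of lowest limma p with a mean FPKM above 10 in each other list, and the 3 genes most correlated with Tubb4b and with Tuba1b; 7 listed genes were found under older symbols. No protein sequence was used here. One gene that the rule names and some sequences are not reported here.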

Additional observations from a re-analysis of the deposited data

Results flagged for a closer look

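A library far from the other 3 of its dataset was looked for in 60 groups of 4 values, covering the isotypes, their shares and the named tubulin and autoregulation genes. Chance sets about 1 in 20 such groups apart, and 5 were found. Tubb3 in P replicate 1 was 521 FPKM, beside 215 to 251 in the other P libraries; without it, its log2 fold change was −0.69 in place of −0.40. The share of Tubb2b in the beta sum was 0.272% in P replicate 3, beside 1.14% to 1.22% in the other P libraries. Scaper was 10.5 FPKM in NP replicate 3, with the other NP libraries at 1.34 to 2.02. It was 12.2 FPKM in P replicate 2, with the other P libraries at 1.05 to 1.73. D1Bwg0212e was 43.8 FPKM in P replicate 1, beside 1.80 to 7.49 in the other P libraries.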

How the results depend on the processing

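Over 16 alternatives, 7 of the 10 isotypes kept the direction of their log2 fold change. The exceptions were Tubb2a, at −0.11 without P replicate 4, and Tubb3 and Tubb5, at 0.56 and 0.35 after median centring. The other filters and the replicate block leave the estimate of a gene unchanged, so among the 16 they could not alter a direction. No alternative called an isotype, and the smallest adjusted p was 0.108 (Tuba1b, median centring). With libraries left out in turn, the log2 fold change was 1.01 to 1.73 for Tuba1a, 1.0 to 1.82 for Tuba1b, −1.60 to −0.82 for Tuba4a, −0.11 to 0.89 for Tubb2a, −1.45 to −0.83 for Tubb4b and −2.23 to −1.42 for Tubb6. Of all genes, limma called 3, all lower in P, and the cause of changes in this count was not tested. The count was 5 with a pseudocount of 0.1, 5 with a mean FPKM above 1, 1 without a filter, 0 after median centring, 0 after quantile normalization, 2 with array weights, and 0 to 5 with libraries left out in turn, being 5 without P replicate 1 and 0 without each NP library or P replicate 3. At an unadjusted p below 0.05, the split of higher and lower in P was 68 and 1354 as reported, 2719 and 177 after median centring, and 364 and 578 after quantile normalization. The voom test on recovered reads, chosen after seeing the data, called 108 of 6310 genes, 107 of them lower in P. A replicate block gave 1 call and put 4 isotypes at an unadjusted p below 0.05 (Tuba1b, Tuba4a, Tubb4b and Tubb6) in place of 1. Of all 14292 genes tested, that fit put 1734 at this level, 116 higher and 1618 lower in P. No source states that libraries of one number share a gradient, and deviations of same-numbered libraries correlated at 0.139, 0.0518, 0.251 and 0.155 over 11374 genes, and all libraries except NP replicate 2 correlated best with their own number. Between libraries of one number, P lay above NP in 4 of 4 for Tuba1a and Tuba1b and in 0 of 4 for Tuba4a, Tubb4b and Tubb6. The share of all genes with such counts was not computed, and 28.6% of all genes had a log2 fold change above 0. The differences in shares moved by less than 1 SD with each library left out and with the other alpha and beta genes added, the alternatives run for them, although some moved by over 1.5 times. Depth limits Tuba1a most, with 47 reads in NP replicate 2.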
